A study of Mus musculus with 4 samples.

Results

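The 10 genes described here are 9 chemokine ligands and a chemokine receptor measured in cultured mouse rib chondrocytes, chosen by gene symbol from the 18298 genes with a read in at least 1 of 4 RNA-seq samples. All 10 were listed in every sample, and all 10 were among the 14123 genes that passed a minimum of 10 reads in at least 2 samples. The cultures came from rib cages of E18.5 embryos on a C57BL/6 background, at passage 1. Both groups carried floxed Senp6 alleles. The 2 WT samples (Senp6f/f) had no Cre, and the 2 Mut samples (Dermo1-Cre;Senp6f/f) also carried Dermo1-Cre, a recombinase driven from the Twist2 locus in skeletal progenitors, so the presence of Cre and the loss of SENP6, a protease that removes SUMO2/3 chains, cannot be told apart. The comparison asks how loss of SENP6 bears on chemokines of the senescence-associated secreted phenotype (SASP) and on the chemokines a skeletal cell makes at rest.

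Chemokines are small secreted proteins that bind G-protein-coupled receptors and set up gradients for migrating cells. Inflammatory members such as Cxcl1, Cxcl5, Ccl2 and Ccl7 are induced by NF-κB and draw neutrophils or monocytes, and several are counted among SASP factors. Homeostatic members such as Cxcl12 are made continuously and keep progenitors and blood cells in place, while Cxcl16 and Cx3cl1 are made as transmembrane proteins that proteases can shed. Cxcr7, now named Ackr3, binds Cxcl12 and takes it into the cell for degradation, and so acts as a scavenger rather than a classical signalling receptor.

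Between 21.0 M and 31.0 M reads per sample were counted on genes. Reads on Senp6 were 1125 and 2326 in WT and 1839 and 1126 in Mut, which overlap, and counts over the whole gene include the exons that Cre leaves in place. Mut replicate 2 had 11354 reads on Xist against 2 to 5 in the other samples, and 0 to 3 reads on each of 4 Y-linked genes against 279 to 1601 elsewhere, so embryo sex was mixed within the Mut group. The chondrocyte label was supported by Col2a1, at an RPKM (the read count divided by gene length and by the sample's total) of 609 and 659 in WT and 334 and 445 in Mut. Fibroblast collagen was also abundant, with Col1a1 between 3311 and 7253 RPKM. Both Mut samples were below both WT samples for 9 of 10 chondrocyte markers, against 22.8% of all tested genes.

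Promoter sequence was looked up for the members in RefSeq (GRCm38.p6), which gave an entry for 6 of the 10. The promoter set used here held no entry for Cxcl5, Ccl2, Ccl7 and Cxcl16, so these were not searched. The 250 bases before the start site were searched on both strands for the κB consensus, the site of NF-κB, and for the AP-1 site TGANTCA. A κB match was found for 2 of the 6 members, Cxcl1 and Ccl9, and an AP-1 match for Ccl9 alone. Over all 32851 entries of the table, 3.9% held a κB match and 6.75% an AP-1 match. The windows of Cxcl1 and Ccl9 are shown for these matches, in capitals, and those of Cxcl12 and Cxcr7 for comparison as a ligand and its scavenger. In Cxcl1 the letters match on both strands in overlapping positions, starting 71 and 70 bases before the start site. In Ccl9 the κB match starts 35 bases before it and does not overlap the AP-1 match. A match describes the letters only.
Cxcl1, chr5:90890995-90891244, forward strand: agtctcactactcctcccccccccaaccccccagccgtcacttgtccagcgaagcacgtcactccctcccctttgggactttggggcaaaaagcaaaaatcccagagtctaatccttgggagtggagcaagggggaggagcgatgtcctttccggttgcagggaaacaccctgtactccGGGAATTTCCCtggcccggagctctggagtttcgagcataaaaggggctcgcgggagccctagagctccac
Ccl9, chr11:83578637-83578886, reverse strand: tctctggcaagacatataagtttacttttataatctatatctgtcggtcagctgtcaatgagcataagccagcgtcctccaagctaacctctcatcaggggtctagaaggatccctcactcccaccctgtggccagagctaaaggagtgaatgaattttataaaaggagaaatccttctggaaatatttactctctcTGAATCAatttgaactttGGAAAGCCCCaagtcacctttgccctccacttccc
Cxcl12, chr6:117168285-117168534, forward strand: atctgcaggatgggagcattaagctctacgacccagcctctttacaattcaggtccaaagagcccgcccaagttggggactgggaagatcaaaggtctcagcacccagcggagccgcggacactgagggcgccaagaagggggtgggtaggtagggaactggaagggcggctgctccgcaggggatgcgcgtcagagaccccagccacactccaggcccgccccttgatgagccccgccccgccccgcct
Cxcr7, chr1:90203730-90203979, forward strand: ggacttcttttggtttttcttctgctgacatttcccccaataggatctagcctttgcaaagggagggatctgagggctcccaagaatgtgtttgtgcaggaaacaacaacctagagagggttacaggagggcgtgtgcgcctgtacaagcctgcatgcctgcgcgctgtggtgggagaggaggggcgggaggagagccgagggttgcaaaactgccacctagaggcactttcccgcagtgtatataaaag

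Cxcr7 was higher in both Mut samples than in both WT samples, as was Cx3cl1 by a smaller margin, and Cxcl5, Ccl9 and Cxcl12 were lower in both. The groups overlapped for Cxcl1, Ccl2, Ccl7, Cxcl14 and Cxcl16. Over all tested genes, both Mut samples were above both WT samples for 25.4% and below for 22.8%, so 2 higher and 3 lower among 10 was close to the background. None of the 10 members passed an adjusted p of 0.05 in the edgeR quasi-likelihood test, and neither did any of the 14123 genes (0% in either direction). The smallest adjusted p of any gene in that test was 0.0512, and 284 of the 14123 genes were under 0.1. At an unadjusted p under 0.05 that test gave 4 of the 10 members, against 15.6% of all genes. DESeq2 placed 1 member higher (Cxcr7) and 3 lower (Cxcl5, Ccl9 and Cxcl12) at an adjusted p under 0.05, against a background of 3.07% higher and 1.86% lower. At 2 against 2, the smallest p that exact permutation allows for any gene is 0.33, so the test of a gene leans on the spread shared across genes. The methods of the study call the cultures of such experiments biological replicates, and the sex-linked reads place the Mut cultures in different embryos.

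**Figure D1:**
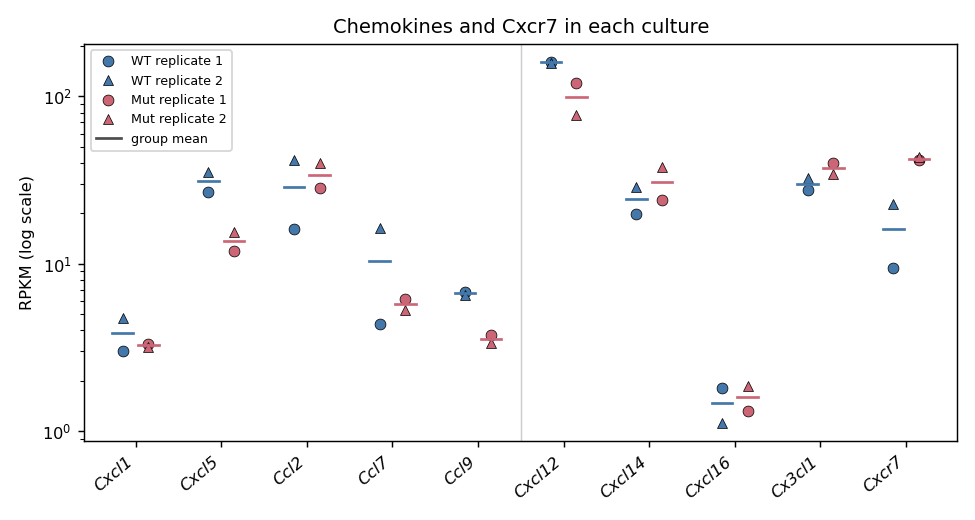
RPKM of the 5 inflammatory chemokines (left of the grey line) and of the 5 other genes (right) in each culture, on a log scale, with a bar at each group mean. Cxcl12 lies above all others in every sample, and the Mut samples lie apart from the WT samples for Cxcl5, Ccl9, Cxcl12, Cx3cl1 and Cxcr7.

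Cxcl5, a neutrophil attractant, stood at 26.8 and 35.4 RPKM in WT replicates 1 and 2 and at 11.9 and 15.5 in Mut replicates 1 and 2. Both Mut samples were below both WT samples. The means were 31.1 ± 6.09 and 13.7 ± 2.56 (SD, n = 2), and Mut over WT came to -1.22 on the log2 scale (standard error 0.189, adjusted p = 0.0833 in the edgeR quasi-likelihood test). The difference exceeded the spread within either group, and DESeq2 gave an adjusted p of 5.75e-06, with a range over the alternatives on all samples from that value to 0.111. With any single culture left out, the edgeR log2 fold change of Cxcl5 stayed between -1.405 and -1.06.

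Cxcl1, the mouse counterpart of the human growth-regulated chemokines and a standard SASP marker, was low in all cultures. It had 61 and 119 reads in WT and 99 and 87 in Mut, which is 3.01 and 4.72 RPKM against 3.31 and 3.19. The Mut values lay between those of the WT samples, and the difference was -0.29 on the log2 scale (standard error 0.301, edgeR adjusted p = 0.705). Both ligands bind Cxcr2, whose RPKM was 1.11 and 1.04 in WT and 2.29 and 2.08 in Mut. Cxcr2 was thus higher in both Mut samples, by 0.98 on the log2 scale (standard error 0.237, edgeR adjusted p = 0.132, DESeq2 adjusted p = 0.0922), while its more abundant ligand Cxcl5 was lower. The 71 to 216 reads on Cxcr2 covered only 25.3% to 26.8% of the gene. For the receptor gene Ccrl1, 103 to 236 reads covered 82.3% to 86.4%. Whether the Cxcr2 reads stem from the receptor transcript was not tested. Cxcl2, a close relative, had between 0 and 9 reads and was not tested.

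Ccl2, which attracts monocytes through Ccr2, was at 16.1 and 41.4 RPKM in WT and 28.3 and 39.8 in Mut. Ccl7, which lies next to Ccl2 on chromosome 11 of GRCm38.p6 and shares that receptor, was at 4.33 and 16.3 in WT and 6.12 and 5.32 in Mut. For both genes WT replicate 1 was lowest and WT replicate 2 highest of the 4 samples. The WT samples differed 2.58-fold for Ccl2 and 3.77-fold for Ccl7, and only 3.82% and 1.51% of all tested genes were at least as far apart between the WT samples after normalization. The log2 fold changes were 0.20 for Ccl2 (standard error 0.396, edgeR adjusted p = 0.855) and -0.89 for Ccl7 (standard error 0.539, edgeR adjusted p = 0.5005). Both depended on which WT culture was used. Without WT replicate 1 the values were -0.31 for Ccl2 and -1.53 for Ccl7, and without WT replicate 2 they were 0.98 and 0.31. Without Mut replicate 2 the value for Ccl2 was -0.04. Their receptor Ccr2 had only 3 to 6 reads per sample.

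Ccl9, a ligand of Ccr1 made by macrophages and osteoclasts, was at 6.75 and 6.51 RPKM in WT and 3.74 and 3.34 in Mut. The samples of each group lay close together and the groups did not overlap. In edgeR the difference was -0.95 on the log2 scale (standard error 0.172, adjusted p = 0.0901), and the adjusted p over the alternatives on all samples ran from 0.00242 with DESeq2 to 0.118. With each culture left out in turn, the log2 fold change stayed between -1.05 and -0.849. Most macrophage markers were also lower in Mut. The summed RPKM of the 12 listed macrophage markers was 27.4 and 24.7 in WT and 13.8 and 18.9 in Mut. Of the 11 tested, 9 were lower and 2 (Cd14 and Mrc1) higher in both Mut samples, against 22.8% and 25.4% of all genes. DESeq2 placed 1 lower (Lyz2) and 0 higher, against 1.86% and 3.07%, and none passed in edgeR. Lyz2, the lysozyme of myeloid cells, was at 11.1 and 7.85 in WT and 2.53 and 4.76 in Mut, while Ptprc, the general leukocyte antigen, had 3 to 6 reads in each sample and none of the 12 was at 0. Ctsk, a protease known from osteoclasts, was at 77.3 and 61.0 in WT and 38.3 and 34.8 in Mut. These levels were above those of every macrophage marker listed, and which cells made Ctsk was not tested. Mmp9, of the same list of proteases, overlapped between groups, at 3.48 and 1.24 in WT and 2.03 and 1.76 in Mut. The part of macrophages and osteoclasts in the Ccl9 difference was not tested, and in bulk RNA fewer cells of a type and less RNA per cell cannot be told apart.

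Cxcl12, the retention signal for blood progenitors in bone marrow, was the most abundant chemokine in every sample. It stood at 161 and 159 RPKM in WT and 120 and 77.0 in Mut, and made up 55.5% and 45.9% of the summed RPKM of all chemokine ligands in WT and 46.8% and 31.5% in Mut. The WT samples were nearly equal, both Mut samples were lower, and Mut replicate 2 was the lowest. The edgeR estimate was -0.74 on the log2 scale (standard error 0.224, adjusted p = 0.194, and from 0.0254 with DESeq2 to 0.2165 over the alternatives on all samples). It was -1.12 without Mut replicate 1, -0.44 without Mut replicate 2, -0.707 without WT replicate 1 and -0.796 without WT replicate 2. Markers of perichondrium and fibroblasts, cells that also make Cxcl12, did not share a direction. Of 9 tested, 4 were lower in both Mut samples and 2 higher, against 22.8% and 25.4% of all genes, and 3 overlapped. Their summed RPKM, 12669.5 and 8869 in WT and 9006 and 6607 in Mut, was mostly that of the collagens Col1a1, Col1a2 and Col3a1, which were among the lower ones. Thy1, a surface marker of fibroblasts, was the only one past 0.05 in DESeq2 and was higher, at 219.5 and 341 RPKM in WT and 609 and 832 in Mut (edgeR adjusted p = 0.0885). Twist2, 1 of the 3 that overlapped, is the locus that drives Cre, which only Mut carried. What the Cre allele does to Twist2 reads was not tested. The part of perichondrium and fibroblasts in the Cxcl12 difference was not tested either.

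The scavenger Cxcr7 differed in the opposite direction. Its RPKM was 9.37 and 22.8 in WT and 41.4 and 43.5 in Mut, from 457 and 1383 reads against 2978 and 2855. The Mut samples were nearly equal and lay above both WT samples, which were 2.43-fold apart. This was a 2.58-fold difference, or 1.37 on the log2 scale (standard error 0.356, adjusted p = 0.149 in edgeR), with an adjusted p from 0.00153 with DESeq2 to 0.304 over the alternatives on all samples. The log2 fold change was 0.88 without WT replicate 1, 2.08 without WT replicate 2, 1.385 without Mut replicate 1 and 1.349 without Mut replicate 2. Among the 10 genes Cxcr7 was sixth by RPKM in both WT samples and second, after Cxcl12, in both Mut samples. The ratio of Cxcl12 to Cxcr7 RPKM was 17.1 and 6.99 in WT and 2.90 and 1.77 in Mut. As Cxcl12 was lower and Cxcr7 higher in both Mut samples, this ratio had to separate the groups and adds no support. Cxcr4, the signalling receptor for Cxcl12, was close to absent, with 3 and 4 reads in WT and 8 and 18 in Mut, and did not pass the minimum for testing.

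**Figure D2:**
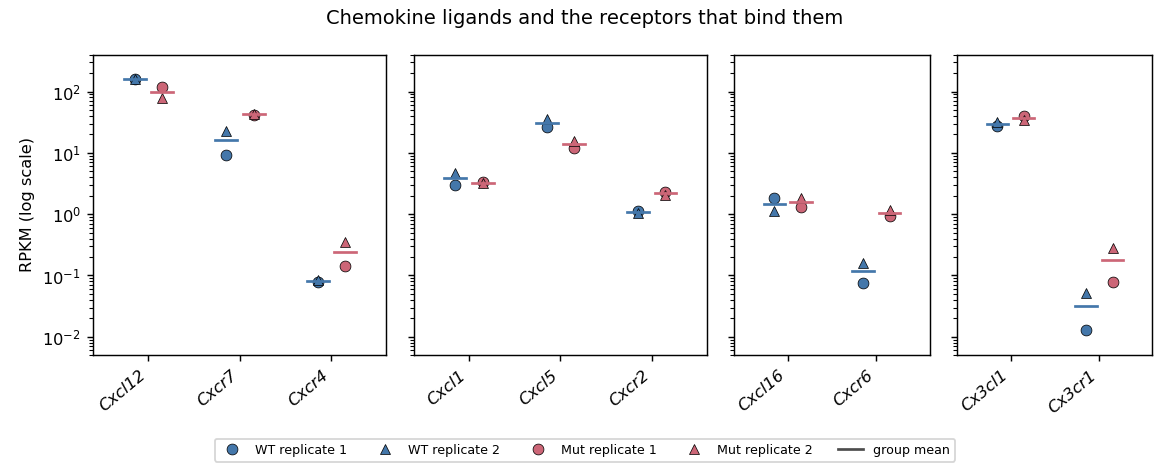
RPKM in each culture, on a log scale, of 5 ligands and of receptors that bind them, with a bar at each group mean. Cxcl12 is lower and Cxcr7 higher in both Mut samples, Cxcr4 and Cx3cr1 reach at most 0.35 RPKM, and Cxcr2 and Cxcr6 are higher in both Mut samples.

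Of the transmembrane chemokines, Cx3cl1 (fractalkine) was at 27.7 and 32.3 RPKM in WT and 40.1 and 34.5 in Mut. Both Mut samples were above both WT samples, but by little, and the log2 fold change was 0.27 (standard error 0.145, edgeR adjusted p = 0.44). Its receptor Cx3cr1, a marker of microglia and resident macrophages, had 1 and 5 reads in WT and 9 and 30 in Mut and was not tested. Cxcl16 was the lowest of the 10 in every sample, at 1.81 and 1.11 RPKM in WT and 1.32 and 1.87 in Mut, with overlapping groups and 0.08 on the log2 scale for Mut over WT (standard error 0.347, edgeR adjusted p = 0.936). Cxcr6, the receptor of Cxcl16, had 3 and 8 reads in WT and 55 and 63 in Mut. Its difference of 3.05 on the log2 scale (standard error 0.487, edgeR adjusted p = 0.0833, DESeq2 adjusted p = 0.00529) came at RPKM values of 0.0754 and 0.162 against 0.937 and 1.18. Cxcr6 reached the minimum for testing only through the Mut samples, where it was high, so a difference was built into its selection. Of the sheddases that release both ligands, Adam10 was at 37.7 and 42.3 RPKM in WT and 47.4 and 47.2 in Mut, and Adam17 between 16.6 and 17.5 in all 4 samples.

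Cxcl14, a homeostatic chemokine of epithelia and fibroblasts, was at 19.7 and 28.8 RPKM in WT and 23.9 and 37.9 in Mut. The groups overlapped, and the log2 fold change was 0.30 (standard error 0.252, edgeR adjusted p = 0.632). It was -0.04 without Mut replicate 2, the highest sample, and 0.58 without Mut replicate 1.

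**Figure D3:**
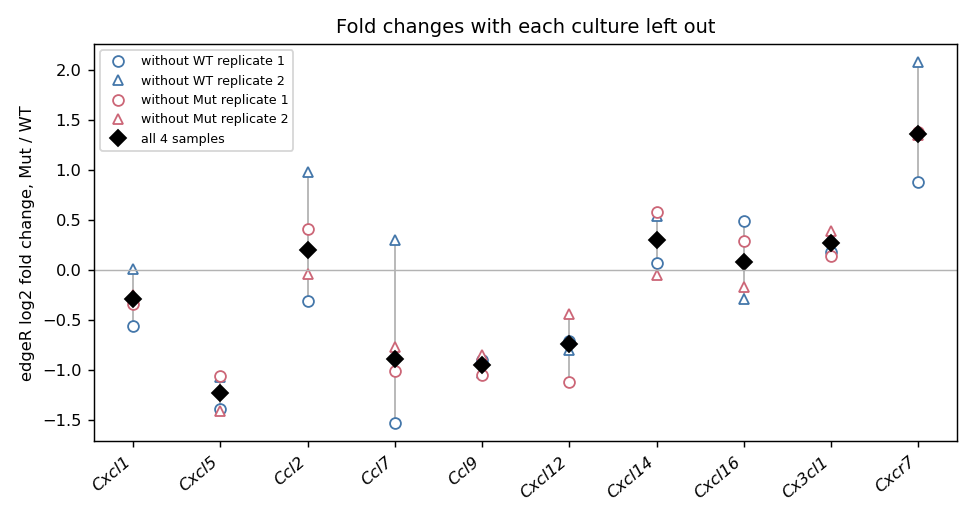
edgeR log2 fold change of Mut over WT for each gene with all 4 samples (diamonds) and with each culture left out in turn (open symbols). Cxcl5, Ccl9 and Cxcl12 stay below 0 and Cxcr7 and Cx3cl1 above 0, while Cxcl1, Ccl2, Ccl7, Cxcl14 and Cxcl16 cross 0.

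The wider family was read from a list of 41 ligand symbols, of which 33 were listed and 21 tested. The 9 ligands among the 10 genes made up between 89.2% and 93.9% of the summed ligand RPKM in each sample. None of the 21 passed 0.05 after adjustment in edgeR (7 at an unadjusted p under 0.05, against 15.6% of all genes). DESeq2 placed 1 higher and 4 lower, against 3.07% and 1.86%. Both Mut samples were above both WT samples for 3 and below for 7, against 25.4% and 22.8%. The median log2 fold change was 0.08, against 0.01 over all tested genes. The higher one was Cxcl10, an interferon-induced attractant of T cells, with 46 and 51 reads in WT and 111 and 250 in Mut (log2 fold change 1.53, standard error 0.447, edgeR adjusted p = 0.181, DESeq2 adjusted p = 0.0496). Besides the 3 members already given, Ccl11 (eotaxin, an attractant of eosinophils) was the lower one, with 125 and 52 reads in WT and 29 and 11 in Mut (log2 fold change -2.60, standard error 0.669, edgeR adjusted p = 0.144, DESeq2 adjusted p = 0.00633). Pf4 (platelet factor) and Ccl6, both found in macrophages, had 27 and 15 against 6 and 5 reads and 17 and 25 against 8 and 9 reads, and passed the minimum only through the WT samples, so their place in both counts of 7 is no support for a direction. The other tested ligands were Ccl5, Ccl17, Ccl25, Ccl27a, Ccl28, Cxcl3, Cxcl9 and Ppbp, with log2 fold changes between -0.92 and 0.74. Genes next to each other were alike in sign in some places and not in others (GRCm38.p6). On chromosome 11, Ccl9 lies between Ccl5 and Ccl6, at log2 fold changes of -0.23 and -1.65, and all 3 genes were lower in both Mut samples. Ccl7 lies between Ccl2 and Ccl11. Ccl7 and Ccl11 were negative and Ccl2 was not, but the signs of Ccl2 and Ccl7 changed with some cultures left out. On chromosome 5 Ppbp, at 0.74 with overlapping groups, lies next to Cxcl5, at -1.22. Whether reads shared by similar chemokine genes were split or dropped is not given in the sources used here.

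Of 33 receptor symbols, which include older names of the same genes, 21 were listed and 9 tested. None passed in edgeR (4 at an unadjusted p under 0.05, against 15.6% of all genes), DESeq2 placed 2 higher (Cxcr6 and Cxcr7) and 0 lower, against 3.07% and 1.86%, and 6 of the 9 were higher and 1 lower in both Mut samples, where 25.4% and 22.8% of all genes were. Cxcr6, Ccrl2 and Darc reached the minimum only through the Mut samples, where they were high, so these counts are a description and no support for a direction of the receptors. Of the rest, Cxcr7, Cxcr2 and Cmklr1 were higher and Ccr7 lower in both Mut samples. Cmklr1, the receptor of chemerin, was at 6.22 and 5.90 RPKM in WT and 10.7 and 8.69 in Mut (log2 fold change 0.63, standard error 0.172, edgeR adjusted p = 0.16). The decoy receptors Ccrl1 and Darc had log2 fold changes of 0.04 and 0.89, Ccrl2 of 1.27, Xcr1 of 0.19 and Ccr7 of -0.72. Their standard errors ran from 0.292 to 0.631, and the edgeR adjusted p was 0.391 or more. The 60 to 103 reads on Xcr1 covered only 9.12% to 21.7% of the gene. As for Cxcr2, whether they stem from the receptor transcript was not tested.

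**Figure D4:**
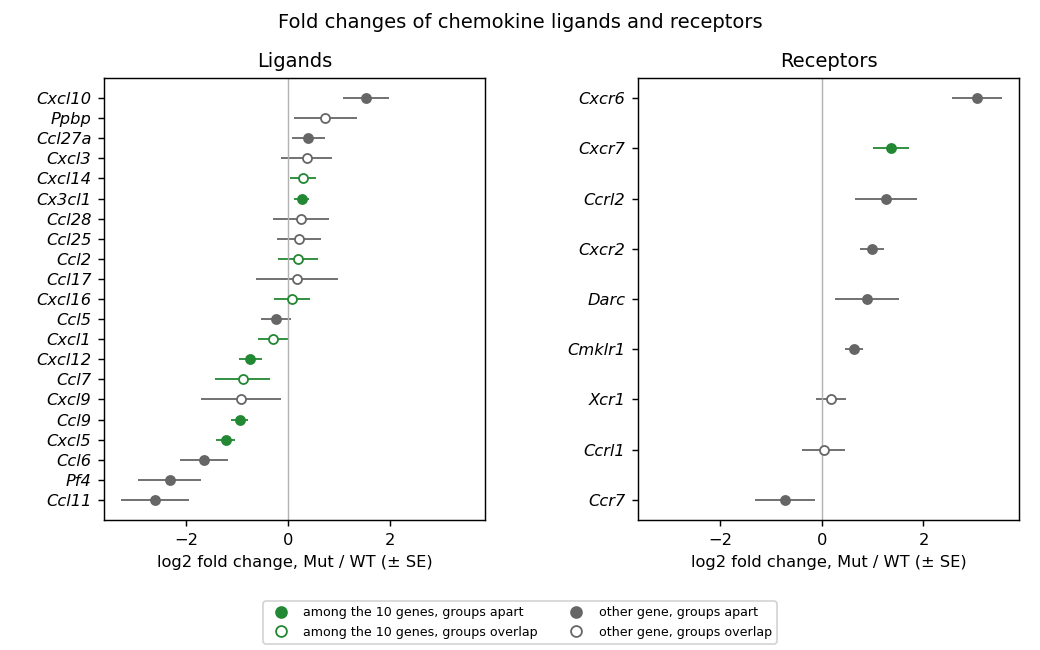
edgeR log2 fold change of Mut over WT with its standard error for the 21 tested ligands (left) and the 9 tested receptors (right), filled where the groups do not overlap. Ccl11, Pf4 and Ccl6 lie lowest among ligands and Cxcl10 highest, and Cxcr6 and Cxcr7 lie highest among receptors.

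Cytokines and receptors that induce chemokines were mixed. Of 16 tested, DESeq2 placed 3 higher (Il6, Lif and Il6ra) and 2 lower (Il1r1 and Il1rn), against 3.07% and 1.86% of all genes. None passed in edgeR (11 at an unadjusted p under 0.05, against 15.6%), and the median log2 fold change was 0.04. Il6, a central SASP cytokine, was at 0.306 and 0.598 RPKM in WT and 1.96 and 3.94 in Mut (log2 fold change 2.62, standard error 0.512, edgeR adjusted p = 0.0965). Lif, of the same family, was at 0.356 and 0.629 against 1.76 and 2.64 (log2 fold change 2.10, standard error 0.347, edgeR adjusted p = 0.0852). Il6ra, the receptor of Il6, was at 1.41 and 1.88 against 3.34 and 3.41. The interleukin 1 receptor Il1r1 was at 64.6 and 65.6 in WT and 42.0 and 35.0 in Mut, and its antagonist Il1rn at 85.5 and 78.8 against 45.4 and 46.4. Il1a and Tnf, which drive Cxcl1 and Cxcl5 in many cells, had 0 to 2 reads in every sample.

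Of 16 tested NF-κB subunits and feedback targets, the median log2 fold change was -0.01, none passed in edgeR (3 at an unadjusted p under 0.05, against 15.6% of all genes), and DESeq2 placed 3 higher and 0 lower, against 3.07% and 1.86%. These were Nfkbiz (2.52 and 4.29 RPKM in WT, 5.83 and 8.63 in Mut), Tnfaip3 (0.708 and 0.716 in WT, 1.42 and 1.96 in Mut) and the adhesion molecule Icam1 (13.5 and 8.92 in WT, 16.3 and 30.9 in Mut). Nfkbiz and Tnfaip3 encode feedback regulators of the pathway. Among the 6 members with a promoter entry, Cxcl1 and Ccl9 held a κB match. Cxcl1 overlapped between groups and Ccl9 was lower in both Mut samples. Whether NF-κB acts on either gene was not tested. Of 11 tested chemokine-modifying proteases and inhibitors, DESeq2 placed Timp3 higher (57.2 and 86.2 RPKM in WT, 109 and 142 in Mut) and Ctsk lower, against the same 3.07% and 1.86%. None passed in edgeR (2 at an unadjusted p under 0.05, against 15.6%), and the median log2 fold change was -0.04.

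Markers of other cells also differed between the groups. Osteoblast markers summed to 187 and 83.2 RPKM in WT and 31.8 and 53.4 in Mut, and chondrocyte markers to 853 and 862 in WT and 411 and 548 in Mut. Skeletal muscle markers summed to 88.1 and 31.0 RPKM in WT and 150 and 166 in Mut. By DESeq2, 7 of 10 tested chondrocyte and 2 of 4 osteoblast markers were lower and 2 of 9 muscle markers higher. Over all genes DESeq2 placed 1.86% lower and 3.07% higher, and none of these markers passed 0.05 after adjustment in edgeR. Endothelial markers summed to between 0.972 and 1.57 RPKM, but single ones went apart, with Kdr at 1.32 and Tek and Cdh5 at -1.74 and -1.13 on the log2 scale. Neutrophil and mast cell markers summed to between 0.0928 and 0.848. Of these Kit, a receptor of mast cells and progenitors, had 5 and 5 reads in WT and 53 and 63 in Mut (DESeq2 adjusted p = 0.00412) and reached the minimum only through Mut. Red blood cell markers summed to between 0.050 and 0.479, and 0 to 4 of the listed markers of these 3 types were at 0 per type and sample. The part of these cells in the chemokine differences was not tested.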

How the data were processed

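RNA of 4 primary rib chondrocyte cultures (2 WT, 2 Mut) was sequenced by a service, and groups follow the sample titles. The authors deposited per gene the read count, without normalization, and the RPKM (the count over the listed gene length and over all reads counted on genes). They also deposited a percent of each gene covered by reads, which is quoted only for Cxcr2, Ccrl1 and Xcr1 and entered no test. The notes of the submitters name mm9 and SAMtools, and the aligner, counter and strand setting are not given in the sources used here. A gene missing from a file was given a count of 0.

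Counts were tested with the edgeR 4.0.16 quasi-likelihood test in R 4.3.3 (TMM factors from 0.966 to 1.03, robust) over the 14123 genes with at least 10 reads in 2 or more samples, adjusting p over all of them by Benjamini-Hochberg. Standard errors come from the F statistic. Levels are compared between genes only as RPKM, while overlap of groups was read from normalized CPM, the count scaled to the library total after TMM. The alternatives were DESeq2 1.42.0, RLE size factors, no filter, at least 10 reads in every sample, each sample left out, a replicate block, and limma 3.58.1 on log2(RPKM + 1) and log2(RPKM + 0.1). The scripts were tested on simulated data. The chi-square over its degrees of freedom between replicates was 40.75 for WT and 20.1 for Mut, so no library was a repeat. The members and lists were chosen with earlier results of these data known, and lists are described by counts and medians only. Named were the 10 members, all tested chemokine ligands and receptors, genes of the cytokine, NF-κB and protease lists past 0.05 in edgeR or DESeq2, and of the cell type markers those that define a type or have the highest RPKM. Cxcl2, Ccr2, Cxcr4, Cx3cr1, Adam10, Adam17, Mmp9, Il1a, Tnf, Cd14, Mrc1, Thy1, Twist2, Kit, Kdr, Tek and Cdh5 were added after values were seen.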

Additional observations from a re-analysis of the deposited data

How the results depend on the processing

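How many genes passed 0.05 after adjustment depended on the tool and filter. edgeR gave 0 higher, 0 lower and 0 of the 10 members. DESeq2 gave 434 higher, 263 lower and 4 members, and edgeR without a filter on low counts gave 225, 61 and 2 (Cxcl5 and Ccl9). RLE size factors, a minimum of 10 reads in every sample and limma on either RPKM scale gave 0 for each of these counts. The replicate numbers share no stated origin, and the replicate 1 minus 2 differences of the genotypes had a correlation of -0.0423 across genes; with the replicate block edgeR gave 84 higher, 33 lower and 1 member, Cxcl5, at a log2 fold change of -1.22 (adjusted p = 0.0426), and no other member passed. With each culture left out in turn the counts ran from 96 to 1331 higher, from 47 to 1492 lower and from 1 to 4 members, the most genes without WT replicate 2. These fits assume that the lone sample of a group varies like the other group. Fits without a WT culture take their spread from the Mut pair, and those without a Mut culture from the WT pair. The edgeR coefficient of variation beyond counting noise was 0.208 for the WT pair and 0.121 for the Mut pair.

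Among the members, DESeq2 gave log2 fold changes of -1.238 for Cxcl5, -0.962 for Ccl9, -0.752 for Cxcl12 and 1.356 for Cxcr7, and edgeR without a filter gave -1.235 for Cxcl5 and -0.958 for Ccl9. Over the 4 fits with a culture left out, the values ran from -0.555 to 0.0147 for Cxcl1, -1.405 to -1.06 for Cxcl5, -0.307 to 0.981 for Ccl2, -1.528 to 0.305 for Ccl7, -1.05 to -0.849 for Ccl9, -1.12 to -0.437 for Cxcl12, -0.0437 to 0.585 for Cxcl14, -0.287 to 0.496 for Cxcl16 and 0.878 to 2.082 for Cxcr7. Of 70 values under alternatives on all samples none changed sign, and RPKM in place of CPM gave the same numbers of members without overlap. The list medians ran from -1.01 to 0.0147 for the 5 inflammatory members, -0.0437 to 0.33 for the other 5 members, -0.276 to 0.14 for all tested ligands, 0.734 to 0.889 for receptors, -0.19 to 0.0848 for proteases, -0.063 to 0.174 for the NF-κB list and -0.017 to 0.109 for inducing cytokines when a culture was left out. Cxcr6, Ccrl2 and Darc reached the minimum only through the Mut samples, so the receptor range is no support for a direction. At the depth here, Ccr2, Cxcr4 and Cx3cr1 did not reach the minimum. Without a filter, edgeR gave Cxcr4 an adjusted p of 0.484 and Cx3cr1 of 0.27. Where a call or a count differed between settings, the cause was not tested.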
